A study of Mus musculus with 17 samples.

Results

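Marker genes of the excitatory neurons of the cortex, 7 in all, served as a check of cell identity in sorted neuronal nuclei: Slc17a7, Slc17a6, Neurod6, Neurod2, Tbr1, Emx1 and Fezf2. They were chosen by name, and every peak that overlapped a gene body or the 10 kb on either side of it was taken, in all 17 libraries. The loci of these 7 of 21755 protein-coding genes held 262 peaks, which merged into 48 regions, and 30 of them (of 147420 in the genome) had been called in at least 2 libraries of 1 group and were kept. Open chromatin was profiled with ATAC-seq, an assay based on a transposase that inserts adapters where DNA is free, in NeuN+ nuclei sorted from the bilateral nucleus accumbens of C57BL/6 mice aged 52 to 54 days. Cocaine (10 mg/kg, intraperitoneal) was given 1 h before sacrifice. Baseline controls had no cocaine, and whether they had a vehicle injection is not stated in the sources used here. Females were in diestrus (low estrogen) or proestrus (high estrogen). Controls comprised 3 diestrus, 3 proestrus and 3 male libraries, cocaine mice 3 diestrus, 3 proestrus and 2 male libraries, and tissue of 3 animals was pooled for each. Diestrus cocaine library 2 carried no stage label and was placed by its title, and the proestrus cocaine libraries were numbered 1, 2 and 4.

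Excitatory neurons of the cortex and hippocampus release glutamate, arise from the dorsal telencephalon and carry a lasting program of transcription factors from that origin. The nucleus accumbens is built mostly of inhibitory medium spiny neurons of ventral origin, and its glutamate comes from axons whose nuclei lie in cortex, hippocampus, amygdala and thalamus. Slc17a7 and Slc17a6 encode VGLUT1 and VGLUT2, which load glutamate into synaptic vesicles. Neurod2 and Neurod6 are basic helix-loop-helix factors of differentiating excitatory neurons, Emx1 is a homeodomain factor of the dorsal telencephalon, and Tbr1 (T-box) and Fezf2 (zinc finger) mark deep-layer projection neurons.

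The results turn on a few stretches of these loci, given here 5′ to 3′ on the strand of the gene, from GRCm38, the build of the files (mm10). Capitals mark CAGATG or CAGCTG, letters that neuronal helix-loop-helix factors can bind, TAATTA for homeodomain factors and AGGTGTGA for T-box factors, each searched on both strands. The 200 bases before the 5′ ends of Emx1, Neurod6 and Neurod2 are shown because peaks at these ends were strongest in male controls, and none of the first pair held any of these letters.
Emx1, chr6:85187238-85187437, plus strand: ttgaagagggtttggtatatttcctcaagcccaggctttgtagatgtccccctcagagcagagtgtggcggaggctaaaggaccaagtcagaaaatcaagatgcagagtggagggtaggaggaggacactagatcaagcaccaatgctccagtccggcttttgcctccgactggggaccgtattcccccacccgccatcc
Neurod6, chr6:55681264-55681463, minus strand: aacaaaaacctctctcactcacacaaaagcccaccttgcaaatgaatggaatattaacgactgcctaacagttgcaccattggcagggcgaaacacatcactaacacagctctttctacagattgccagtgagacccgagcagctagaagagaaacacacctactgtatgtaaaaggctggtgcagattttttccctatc
Neurod2, chr11:98329649-98329848, minus strand: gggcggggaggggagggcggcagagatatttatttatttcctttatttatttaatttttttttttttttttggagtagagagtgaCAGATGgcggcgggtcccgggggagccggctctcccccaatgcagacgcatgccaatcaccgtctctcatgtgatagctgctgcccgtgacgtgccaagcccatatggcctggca

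The next windows span 100 bases on either side of the strongest summit of regions away from these ends. The windows of Neurod6 and Fezf2 lay in regions called in every male control library and no other. The intron windows of Slc17a7 and Slc17a6 were called in some groups only, and the last, before the start of Slc17a7, was called in all libraries.
Neurod6 +4305 bp, chr6:55676858-55677058, minus strand: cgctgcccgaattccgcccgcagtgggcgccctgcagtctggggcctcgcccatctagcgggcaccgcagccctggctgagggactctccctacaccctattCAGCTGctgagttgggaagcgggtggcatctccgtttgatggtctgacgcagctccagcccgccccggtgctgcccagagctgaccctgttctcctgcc
Fezf2 +11286 bp, chr14:12336803-12337003, minus strand: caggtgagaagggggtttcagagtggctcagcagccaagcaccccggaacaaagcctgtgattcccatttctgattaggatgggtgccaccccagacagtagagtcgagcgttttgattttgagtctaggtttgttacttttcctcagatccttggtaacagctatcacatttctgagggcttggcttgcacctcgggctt
Slc17a7 intron +3401 bp, chr7:45167250-45167450, plus strand: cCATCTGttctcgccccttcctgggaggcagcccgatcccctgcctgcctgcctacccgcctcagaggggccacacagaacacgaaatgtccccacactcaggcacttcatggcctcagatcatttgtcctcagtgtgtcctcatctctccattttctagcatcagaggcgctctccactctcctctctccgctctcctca
Slc17a6 intron +40743 bp, chr7:51662649-51662849, plus strand: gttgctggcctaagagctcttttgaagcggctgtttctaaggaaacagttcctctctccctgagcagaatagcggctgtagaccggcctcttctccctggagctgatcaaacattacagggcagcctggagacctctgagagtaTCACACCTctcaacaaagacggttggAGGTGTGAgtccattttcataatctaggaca
Slc17a7 -1689 bp, chr7:45162160-45162360, plus strand: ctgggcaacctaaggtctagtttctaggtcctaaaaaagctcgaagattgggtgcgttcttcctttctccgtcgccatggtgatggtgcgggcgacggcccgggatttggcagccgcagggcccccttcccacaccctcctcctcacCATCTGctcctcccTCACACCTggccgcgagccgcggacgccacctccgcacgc

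Over the 30 regions, 10 (33.3%) of such windows held CAGATG, against 17.1% of the 147420 windows of the genome, 2 (6.67%) held CAGCTG, against 12.1%, and 3 (10.0%) held AGGTGTGA, against 0.977%. TAATTA was in 1 window (3.33%), that of Tbr1 near its main coding start, against 7.25%. The windows had a median GC content of 57.2%, against 45.3% over all regions. Among the 200 bases before the 7 genes, CAGATG stood before Neurod2 and Tbr1 and CAGCTG before Slc17a6 and Tbr1. Over all protein-coding genes 10.4% and 9.91% of such windows held them. These are matches of letters, and binding was not measured.

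Libraries held 75458 to 157005 peaks, the fewest in both male cocaine libraries (75458 and 87707) and the most in diestrus cocaine library 1. The weakest called peak of a library had 15 to 20 reads at its summit over a background of 6.26 to 9.55 reads, so a missing peak means that a site was not called at this depth. The median fold enrichment of peaks (summit reads over background) was 3.51 to 3.72 in male controls and 2.94 to 3.65 in the other libraries. Genes that define medium spiny neurons were open throughout: 15 of 18 had a peak within 1 kb of the 5′ end in all 17 libraries, among them Drd1, Drd2, Ppp1r1b, Penk and Tac1. Of 14 transcription factor genes of other lineages, such as Gata4 and Myod1, 0 had such a peak in any library. The promoter share over all protein-coding genes was 51.9% called in all 17 libraries, against 0 of the 7 excitatory genes. Of 25 further excitatory genes 13 (52.0%) were called in all 17, near the share of all genes. Of 8 striatal interneuron genes it was 0.

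Peaks at the excitatory genes were most numerous in male controls. Before any filter on regions, the 7 loci held 33, 30 and 31 peaks in male controls, 10, 10 and 10 in diestrus controls, 18, 10 and 4 in diestrus cocaine, 16, 20 and 17 in proestrus controls, 15, 12 and 14 in proestrus cocaine, and 6 and 6 in male cocaine libraries. Per 100000 peaks of the library this was 20.8 to 22.3 in male controls and 4.01 to 16.3 in the other 14 libraries, so the groups did not overlap. Of the 30 kept regions, the male controls had called 25, 20 and 24 and the others 4 to 13, while of all 147420 kept regions male controls had called 64.6% to 70.7% and the others 36.6% to 66.1%. The filter fixed part of this difference, since 14 of the 30 regions (46.7%, against 15.1% of all regions) were kept through male controls alone. Over the 16 regions that another group also kept, male controls had called 13, 11 and 11 and the others 4 to 12, and these overlapped. With the 75458 strongest peaks of each library, male controls had called 13 of the 30 each and the others 3 to 9, and of the 16 regions 10 to 11 and 3 to 8. Male controls had then called 43.7% to 44.7% of all kept regions and the others 36.6% to 43.1%. Only 3 regions (10.0%) were called in all 17 libraries, against 25% of all regions, and 14 (46.7%) were called in only 2 or 3 libraries, against 20.9%. In bulk nuclei, fewer nuclei of a type and less signal per nucleus cannot be told apart.

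**Figure D1:**
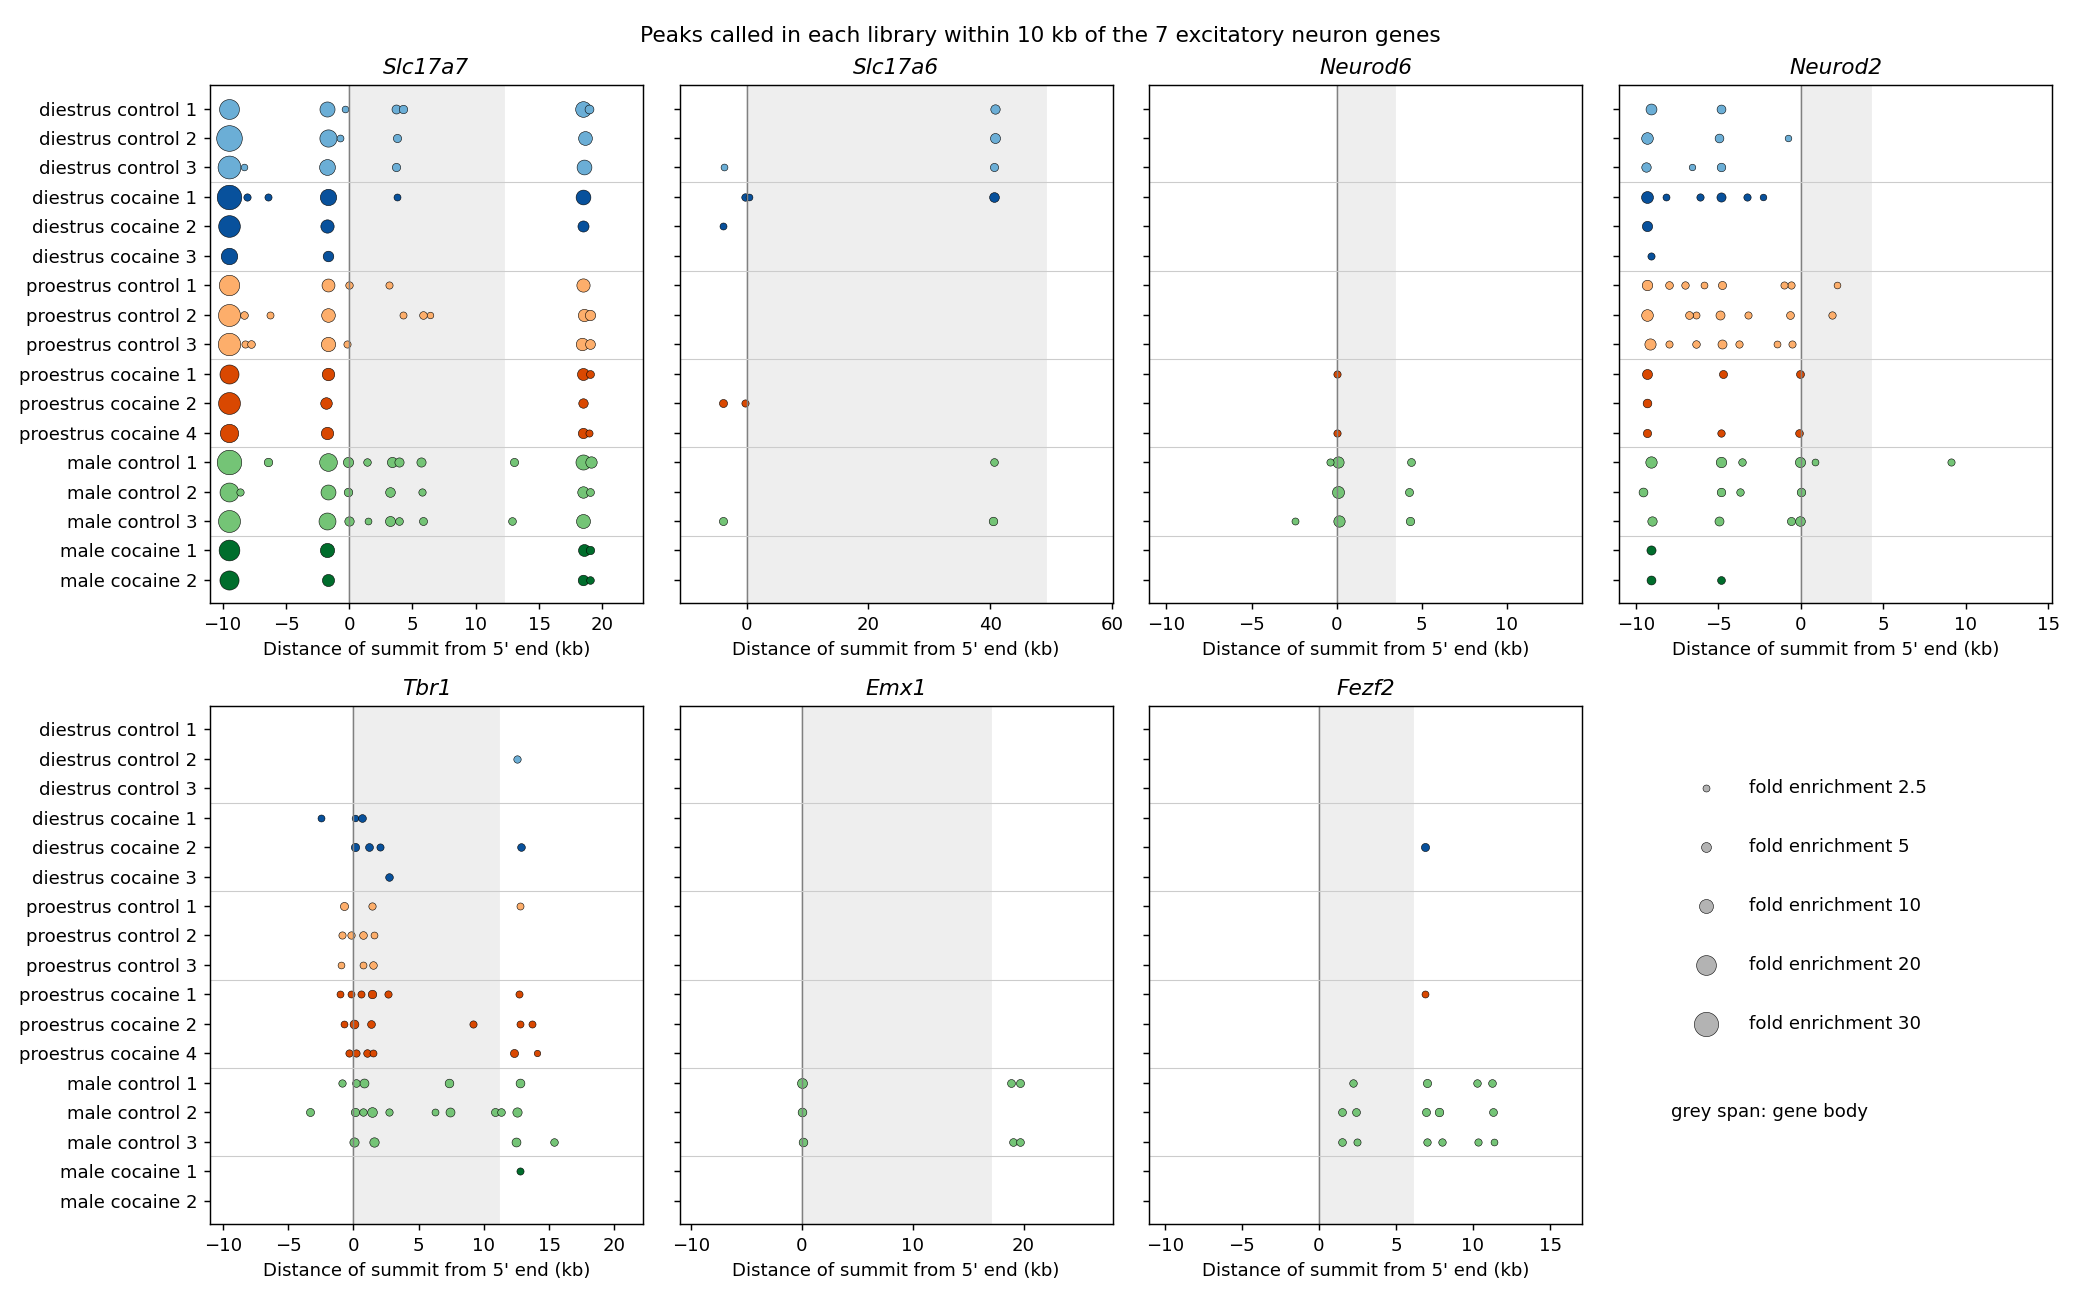
Summits of the 262 peaks by distance from the 5′ end of each gene (x axis, kb, along the gene's direction) in each of the 17 libraries (rows); the area of a point is proportional to its fold enrichment and the grey span is the gene body. Emx1 has peaks in the 3 male controls alone, Neurod6 and Fezf2 nearly so, and Slc17a7 and Neurod2 have upstream peaks in every library.

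The glutamate transporters came first. Slc17a7 (ENSMUSG00000070570, chr7:45163949-45176142) had peaks in all 17 libraries, 96 in all, but its strongest region was not its own. That region, 9504 bp upstream (chr7:45153447-45156400), covered the 5′ ends of Aldh16a1 and Pih1d1, and its fold enrichment was 13.9 to 33.6. A second region (chr7:45161468-45164178), with its summit 1689 bp upstream of the gene in intergenic DNA, was also called everywhere. Its fold enrichment was 11.6, 15.2 and 12.8 in diestrus controls, 13.7, 9.06 and 5.74 in diestrus cocaine, and 8.55, 9.51 and 10.4 in proestrus controls. It was 8.01, 6.84 and 7.85 in proestrus cocaine, 15.9, 11.4 and 14.7 in male controls, and 10.4 and 7.56 in male cocaine. Within each sex and stage the control values were the higher ones, except diestrus cocaine library 1, which lay among its controls. The region 18446 bp downstream, near Pth2 and past the 3′ end, was called in 16 libraries at 4.60 to 12.5 and was missing in diestrus cocaine library 3.

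Within Slc17a7 itself calls differed between groups, and for the promoter this was not tested. A peak reached within 1 kb of its 5′ end in 9 libraries: 2 of 3 diestrus controls, 1 of 3 diestrus cocaine, 3 of 3 proestrus controls, 3 of 3 male controls and 0 of 5 in proestrus and male cocaine. The peaks of male controls had their own summits 36 to 123 bp before the end, at a fold enrichment of 5.35, 3.72 and 4.50. The intron region 3401 bp into the gene was at 4.13, 3.46 and 3.53 in diestrus controls, 2.64 and 2.55 in proestrus controls 1 and 2, and 5.35, 4.82 and 5.16 in male controls. Only diestrus cocaine library 1 (2.49) had it among 8 cocaine libraries, so it was called in 8 of 9 controls and 1 of 8 cocaine libraries. This was the largest imbalance among the excitatory genes (two-sided Fisher's exact test, p = 0.0034, Benjamini-Hochberg adjusted p = 0.216 over 64304 regions). The region 5657 bp into the gene was called in the 3 male controls (4.33, 2.75 and 3.29) and in proestrus control library 2 (3.02).

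Slc17a6 (chr7:51622006-51671119), the transporter more typical of thalamus, had 13 peaks in 8 libraries and 1 kept region, in an intron 40743 bp from its start. The fold enrichment there was 4.52, 5.14 and 3.42 in diestrus controls, 4.87 in diestrus cocaine library 1 and 3.06 and 3.73 in male controls 1 and 3. It was not called in any proestrus or male cocaine library. At the 5′ end only diestrus cocaine library 1 (2.85 and 2.37) and proestrus cocaine library 2 (2.67) had peaks. At Slc17a6 male controls were neither the highest in fold enrichment nor the most often called.

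Among the helix-loop-helix genes, Neurod6 (chr6:55677822-55681263) had few calls outside male controls. Its promoter region (chr6:55680855-55681498, over the 5′ end and the first exon) had a fold enrichment of 6.50, 7.44 and 6.59 in male controls, at percentiles 81.4, 84.9 and 83.1 of all peaks of those libraries. It was 2.70 and 2.72 in proestrus cocaine libraries 1 and 4, at percentiles 31.9 and 35.3, and no peak was called in the other 12 libraries. The region 4305 bp downstream of the start, past the 3′ end, was at 3.19, 3.31 and 3.62 in male controls and called in 0 of 14 others.

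Neurod2 (chr11:98325415-98329648) differed from Neurod6 in having peaks in every library, 62 in all. The upstream region at 9336 bp (chr11:98337258-98339707) was called in all 17, at 6.07, 6.92 and 4.57 in diestrus controls, 7.24, 5.41 and 2.64 in diestrus cocaine, 5.60, 6.96 and 6.45 in proestrus controls and 5.11, 3.85 and 3.46 in proestrus cocaine. Males had 6.63, 3.99 and 4.50 as controls and 4.26 and 4.07 after cocaine, so in proestrus all controls lay above all cocaine libraries, while in the other groups the values overlapped. The region 4828 bp upstream was called in 9 of 9 controls (3.38 to 5.61) and 4 of 8 cocaine libraries (2.83 to 4.27), with a Fisher p of 0.029 and an adjusted p of 0.32. At the promoter, a peak was called in 7 of 9 controls (1 in diestrus, 3 in proestrus and 3 males) and, after cocaine, in 2 of 8 libraries, both in proestrus. The male control promoter values were 5.35, 3.72 and 4.83, all above the 2.23 to 3.20 of the other 6 libraries with a call. The region at 9336 bp lay 7610 bp from the 5′ end of Neurod2, and past its other side was that of Ppp1r1b (chr11:98348404). Ppp1r1b, a medium spiny gene, had a promoter peak in all 17 libraries. Which gene the region serves was not tested.

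Of the cortical patterning genes, Emx1 and Fezf2 had nearly all of their peaks in male controls, and Tbr1 did not. All 3 kept regions of Emx1 and all 6 of Fezf2 were kept through male controls alone. The filter thus fixed part of the calls given below by region, but not the counts of peaks. Emx1 (chr6:85187438-85204462) had 7 peaks, all in male controls. Its promoter region (chr6:85187278-85188095, over the 5′ end) was at 5.10, 3.86 and 3.84 in male controls and was called in 0 of 14 others. A peak within 1 kb of the 5′ end in every male control and no other library was found for 51 (0.234%) of 21755 genes, and for Emx1 among these 7. Emx1 also had regions 18889 and 19712 bp downstream, past its 3′ end, in male controls 1 and 3, at 3.07 to 3.31.

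Fezf2 (chr14:12342094-12348189) had no peak within 1 kb of its outer 5′ end. At the internal start sites of its coding transcripts, however, a region with its summit 2430 bp downstream (chr14:12345505-12346113) was called in the 3 male controls (2.93, 3.17 and 2.63) and in 0 of 14 others. By the 5′ end of any coding transcript, 53 genes (0.244%) had promoters called in male controls alone, Emx1 and Fezf2 among them. The region 7026 bp downstream of the start, past the 3′ end, was at 3.44, 3.31 and 2.85 in male controls, 3.40 in diestrus cocaine library 2 and 2.5 in proestrus cocaine library 1. The region at 11286 bp was at 3.06, 3.17 and 2.41 in male controls alone. Of the 17 peaks of Fezf2, 15 were in male controls, all of low fold enrichment (at most 3.72).

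Tbr1 (chr2:61802930-61814114) was the exception among the patterning genes, since it also had peaks in most female libraries. The region over its 5′ end and main coding start (chr2:61802403-61805766) was called in 3 of 3 proestrus controls (2.75, 3.02 and 2.94), 3 of 3 proestrus cocaine (3.71, 3.96 and 2.93), 3 of 3 diestrus cocaine (3.09, 3.52 and 2.99) and 3 of 3 male control libraries (4.08, 4.82 and 4.50). It was called in 0 of 3 diestrus controls and 0 of 2 male cocaine libraries. The peaks in it were weak and at different positions: the strongest summit lay 681, 92 and 2713 bp downstream of the 5′ end in diestrus cocaine libraries 1, 2 and 3, so the region was joined from separate peaks. The region 12561 bp downstream, past the 3′ end, was called in 10 libraries, at 3.95, 4.41 and 4.06 in male controls and 2.53 to 3.35 elsewhere.

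**Figure D2:**
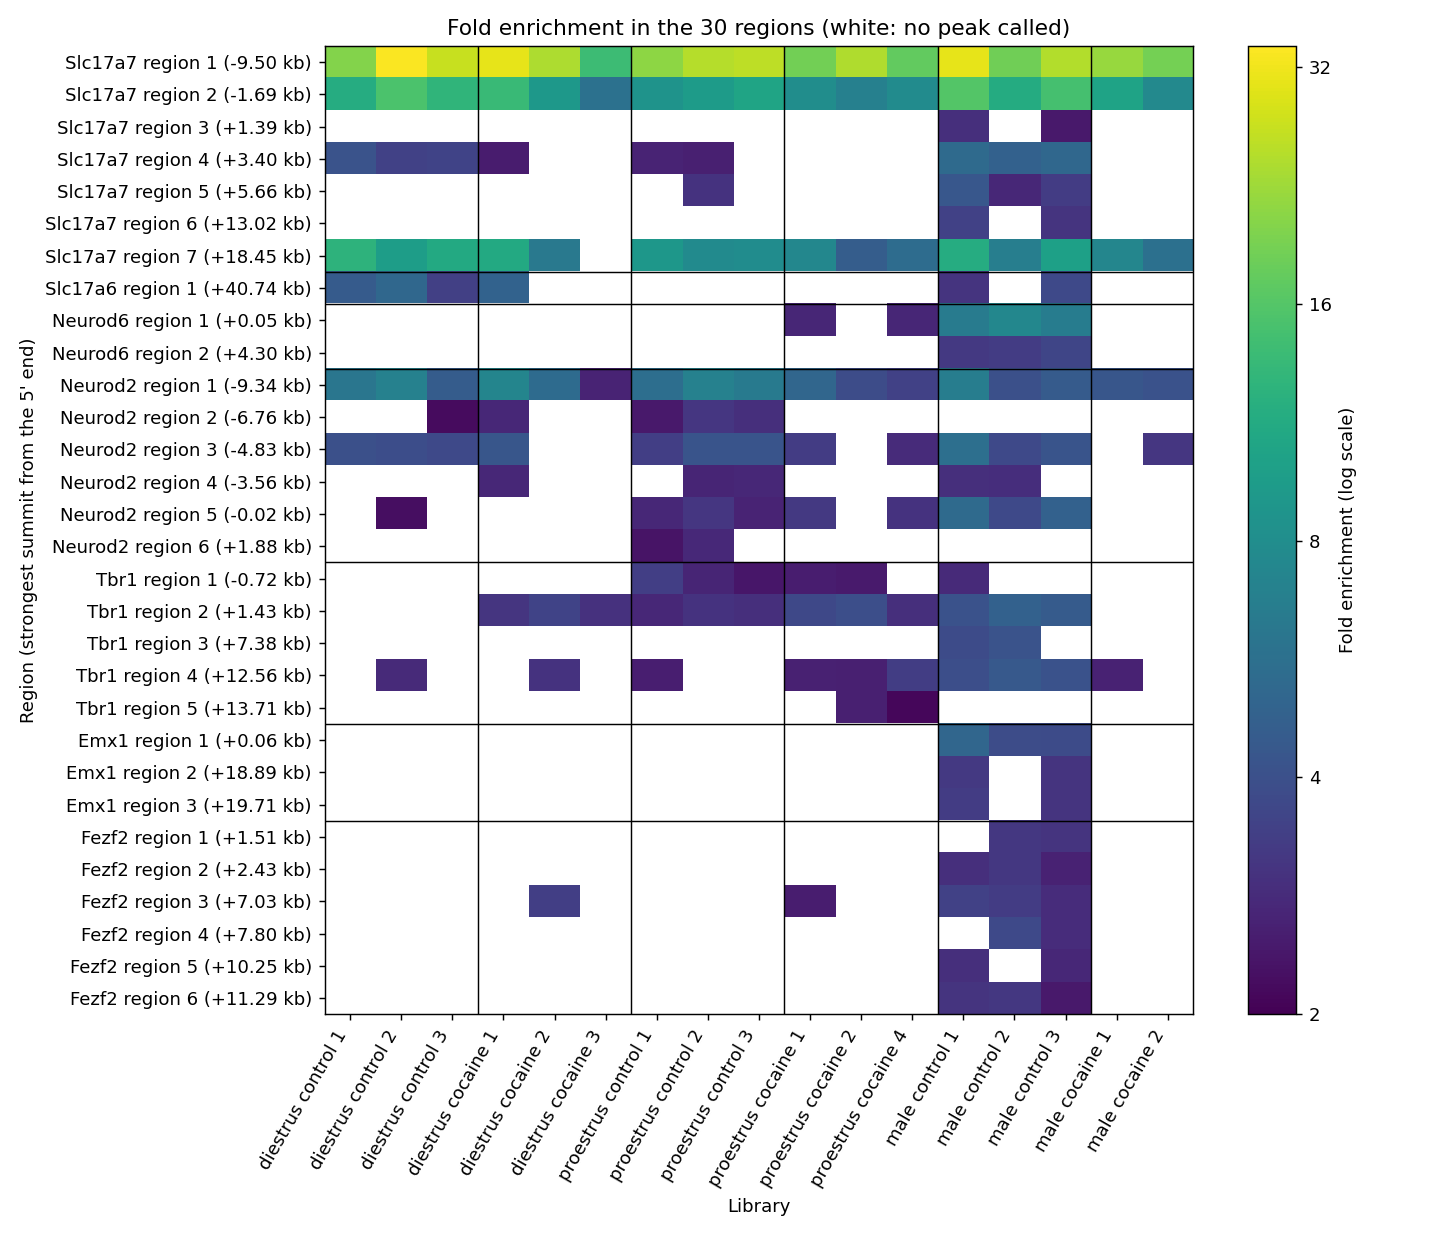
Fold enrichment (colour, log scale) of the strongest peak in each of the 30 kept regions (rows, with the distance of the strongest summit from the 5′ end) in each library (columns); white marks no called peak. Rows of Emx1, Fezf2 and Neurod6 are filled mainly in the 3 male controls, and the upper rows of Slc17a7 in every library.

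To ask whether sex alone, without cocaine, separated the libraries, regions were counted that had been called in every library of 1 group and none of the other. Male against female controls separated 6 of the 30 regions (20%, against 7.20% of all regions): both regions of Neurod6, the promoter of Emx1, and Fezf2 at 2430, 7026 and 11286 bp. All of these but the promoter region of Neurod6 were kept through male controls alone, as were 15.1% of all regions. The filter thus fixed part of this count. In the opposite direction it was 0, against 0.314% of all regions. With the strongest peaks alone 3 regions separated male from female controls, against 3.91% of all regions, and 0 the other way, against 0.405%. Over all peaks but without male control library 2, it was 11 (36.7%, against 10.0% of all regions). Peaks per locus were higher in male controls at Fezf2 (5 against 0 on average, n = 3 and 6), Neurod6 (2.67 against 0) and Emx1 (2.33 against 0). Each of these had an exact permutation p of 0.0119, the smallest that 84 assignments allow, and an adjusted p of 0.0989, so none passed a threshold of 0.05. Over all 18149 genes with a peak in at least 1 library, 0% passed it and 13.8% had more peaks in male controls at an unadjusted p under 0.05, as did 5 of the 7 (Slc17a7 and Tbr1 too). With the strongest peaks the difference at Fezf2 was 0.33 (exact permutation p = 0.33) and at Slc17a7 1.5 (p = 0.31), which left 3 of the 7 at that level (8.70% of all genes), and per 100000 peaks it was 4 of the 7 (12.7%). Fewer peaks at that level were found for 8.34% of all genes and 0 of the 7.

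Males that had received cocaine did not share this pattern. Of the 30 regions, 10 (33.3%, against 16.8% of all regions) were called in every male control and no male cocaine library, and 0 the other way (1.66% of all regions). They were Slc17a7 at 3401 and 5657 bp, both regions of Neurod6, the promoters of Neurod2 and Emx1, Tbr1 at its coding start, and Fezf2 at 2430, 7026 and 11286 bp. Among them, Slc17a7 at 5657 bp, Neurod6 at 4305 bp, the promoter of Emx1 and the regions of Fezf2 were kept through male controls alone. The filter thus fixed part of this count as well. Male cocaine libraries also had the fewest peaks in all. With the strongest 75458 peaks of each library 5 regions were still called in male controls alone of the males (16.7%, against 5.88% of all regions), and 0 in male cocaine alone (2.59%). Without male control library 2 the count over all peaks was 16 (53.3%, against 23.8% of all regions). Set against the other 14 libraries together, a comparison chosen after the values were seen, male controls alone had called 4 regions (13.3%, against 4.71% of all regions): Neurod6 at 4305 bp, the promoter of Emx1, and Fezf2 at 2430 and 11286 bp. The reverse held for 0 regions, against 0.0251% of all regions. With the strongest peaks it was 2 (against 2.59% of all regions), the promoters of Neurod6 and Emx1, with 0 the other way (0.109%). Over all peaks but without male control library 2, it was 9 (30%, against 6.86% of all regions). Regions called by male controls alone could pass the filter only through them.

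In females, cocaine separated few of these regions. In diestrus 1 region was gained (Tbr1 at its coding start, against 1.16% of all regions) and 0 were lost (1.26%). In proestrus 0 were gained (2.45%) and 1 was lost (1.64%), Neurod2 at 6761 bp upstream, which had 2.43, 3.13 and 2.94 in controls. Without diestrus cocaine library 1, 3 regions were lost in diestrus (10.0%, against 7.24% of all regions), and without proestrus control library 3, 3 were lost in proestrus (10.0%, against 2.72%). Diestrus and proestrus controls were separated by 1 region called in diestrus (Slc17a6 at 40743 bp, against 3.96% of all regions) and 2 called in proestrus (Tbr1 at its coding start and 721 bp upstream, against 0.792%). With the strongest peaks, diestrus cocaine gained 0 (1.01% of all regions) and lost 1 (0.743%), Slc17a7 at 3401 bp, and proestrus cocaine gained 0 (1.55%) and lost 0 (0.861%). Diestrus controls alone then had 2 (1.97%), Slc17a7 at 3401 bp and Slc17a6 at 40743 bp, and proestrus controls alone 0 (0.624%). With 3 libraries in a group, a single region cannot reach an exact p under 0.1.

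Over all groups, 12 of the regions were called in 4 to 13 libraries and could be tested for cocaine against control, and 0 passed an adjusted p of 0.05 by Fisher's exact test, as did 0% of all 64304 regions. At an unadjusted p under 0.05, 2 of the 12 were called less often after cocaine (Slc17a7 at 3401 bp and Neurod2 at 4828 bp upstream), against 9.23% of all regions, and 0 more often, against 3.81%. Peaks per locus were fewer after cocaine at Slc17a7 (3.78 against 7.33 on average over the 3 sex and stage groups, exact permutation p = 0.0022, adjusted p = 0.055) and Neurod2 (2.17 against 4.89, p = 0.011, adjusted p = 0.079), and neither passed the threshold. Over all genes 0% passed it and 28.9% had fewer and 1.75% more peaks at an unadjusted p under 0.05. At the other 5 genes the adjusted p was at least 0.27. Without diestrus cocaine library 1, 2 of the 7 genes passed, as did 28.2% of all genes.

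The regions called in all 17 libraries allowed a test of fold enrichment itself, on log2 values centred on each library's median. At 1689 bp before Slc17a7, values fell after cocaine by 0.39 on average over the groups (SE 0.10, 95% interval -0.60 to -0.18, limma adjusted p = 0.011), which is 0.76 of the control level. Lower calls made up 5.93% and higher calls 7.64% of the 36847 regions. The fall was 0.57 in diestrus (SE 0.17, adjusted p = 0.033, lower calls 4.34% and higher 5.26% of regions). In proestrus the difference was -0.43 (adjusted p = 0.14) and in males -0.16 (adjusted p = 0.61, where 4.06% of regions were lower and 5.12% higher), and the male and female differences were not shown to differ (0.34, 95% interval -0.12 to 0.80, adjusted p = 0.29). The average over groups missed the threshold without male cocaine library 2 (-0.32, adjusted p = 0.071) and with an exact permutation test (adjusted p = 0.061), and the diestrus fall missed it without any 1 of 4 diestrus libraries (-0.42 to -0.61) or without centring (-0.56, adjusted p = 0.15).

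At 9336 bp before Neurod2, values fell after cocaine by 0.73 in proestrus (SE 0.20, 95% interval -1.13 to -0.33, limma adjusted p = 0.036, lower calls 1.71% and higher 1.63% of regions). This fall missed the threshold when any 1 proestrus library was left out (-0.63 to -0.86, adjusted p from 0.051 to 0.15) or without centring (-0.63, adjusted p = 0.18). The difference was -0.32 in diestrus (adjusted p = 0.29) and 0.24 in males (adjusted p = 0.50), the latter -0.24 without centring. The male minus the female cocaine difference was 0.77 (95% interval 0.24 to 1.30, adjusted p = 0.040, higher calls 10.8% and lower 6.24% of regions). It missed the threshold when any 1 of 10 of the 17 libraries was left out (adjusted p from 0.050 to 0.14, the highest without a male cocaine library) and without centring (0.22, adjusted p = 0.63). Male controls were also 0.59 lower here than female controls (log2 difference -0.59, SE 0.17, adjusted p = 0.012, lower calls 14.1% and higher 10.2% of regions), where male controls had more calls at the promoters. Of 104 regions at medium spiny genes called in all libraries, 36.5% were lower and 1.92% higher in male controls. For the region before Neurod2, this difference was the one tested next with other settings. The difference before Neurod2 was -0.29 without centring (adjusted p = 0.30) and missed the threshold without male control library 2 (-0.46, adjusted p = 0.11) or 3 (-0.54, adjusted p = 0.065). At the third region, which covers the 5′ ends of Aldh16a1 and Pih1d1, none of the limma contrasts passed (adjusted p of 0.10 or more in each). Between diestrus and proestrus controls 0 of the 3 regions passed, where 0.190% of all regions were higher and 0.0760% lower in diestrus.

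**Figure D3:**
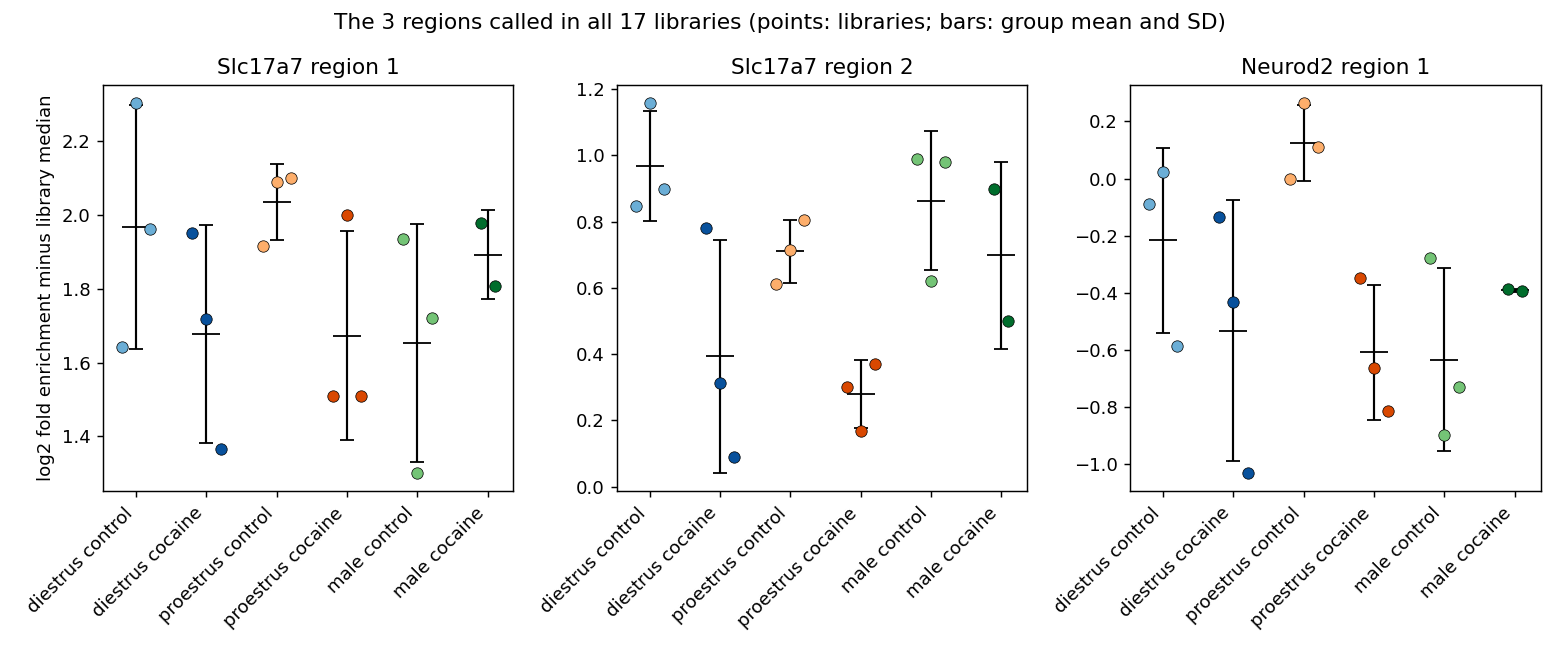
Centred log2 fold enrichment (y axis; each panel has its own range) of the 3 regions called in all 17 libraries, by group (x axis); points are libraries and bars the group mean and SD. Slc17a7 region 2, at 1689 bp upstream, averages 0.97 in diestrus controls and 0.39 in diestrus cocaine, and Neurod2 region 1, at 9336 bp upstream, 0.12 and -0.61 in proestrus controls and cocaine.

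Other genes of excitatory neurons did not split as a list. Of 276 kept regions at 25 further excitatory genes, male controls had called 163 to 205 and the other libraries 95 to 187, so these overlapped, as did the counts with the strongest peaks (109 to 127 and 81 to 124). Regions called in male controls and none of the other 14 libraries numbered 19 (6.88%, against 4.71% of all regions). Among them were 4 at Rasgrf2, 3 at Slc30a3, the vesicular zinc transporter of glutamate neurons, and 2 each at Rorb and Mkx. By the 5′ end of any coding transcript, the promoter of Slc30a3 was called in 3 of 3 male controls and 1 other library, a proestrus control. Within 1 kb of its outer 5′ end it was called in 0 libraries. Neurog2 and Bhlhe22, helix-loop-helix genes of the same lineage, had promoter calls in all 3 male controls, 0 female controls, and in 5 and 4 of the 6 female cocaine libraries. Others on the list went otherwise. Neurod1 had promoter calls in 14 libraries, among them 3 diestrus controls, 2 proestrus controls and 2 male cocaine libraries. Emx2 had promoter calls in 0 male controls and only in female cocaine libraries. So did Eomes by the 5′ end of any coding transcript, in 1 library, with 0 calls at its outer 5′ end. Rorb, Cux2 and Rasgrf2 had promoter calls in all 17 libraries, so their promoters carried no such split.

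Regions of other cell types did not move as 1 block. At 18 medium spiny genes, male controls had called 227 to 257 of 470 regions and the other libraries 143 to 346. Foxp1 held 159 of these regions, Foxp2 62, and Rarb and Meis2 61 each, so most lay at these genes. With the strongest peaks, male controls had called 134 to 139 and the others 143 to 226, so male controls were lowest there. At 18 glial and vascular genes, male controls had called 81 to 94 of 114 regions (71.1% to 82.5%), above the 41 to 80 (36.0% to 70.2%) of the others. With the strongest peaks it was 65 to 67 against 41 to 63. Of all kept regions, male controls had called 64.6% to 70.7% and the others 36.6% to 66.1%. With the strongest peaks these shares were 43.7% to 44.7% and 36.6% to 43.1%. Glial promoters within 1 kb of the outer 5′ end were mixed. Mbp and Olig1 were called in all 17 libraries and Gfap in 16. Mog and Sox10 were called in 1 each, and 9 of the 18 in 0. Male controls called 3 of the 18, against 2 to 9 in the others. By the 5′ end of any coding transcript, Gfap was called in 0 libraries, Pdgfra in 16, Pecam1 in 7 and Aqp4 in 4. By that rule 5 of the 18 were called in 0, and male controls called 3 to 4, against 3 to 11 in the others. At the 14 genes of other lineages, male controls had called 12 to 14 of 16 regions and the others 4 to 12. With the strongest peaks it was 7 to 11 and 4 to 9, which overlapped. At 8 interneuron genes male controls had called 14 to 25 of 35 regions and the others 9 to 31. At 14 genes of terminal cells of other tissues, such as Alb and Myh6, male controls had called 18 to 26 of 35 and the others 11 to 26. Male controls thus also had the most calls at glial and vascular regions. With all peaks, but not with the strongest, they were level with or above every other library at regions of other lineages. The part of these shifts in the calls at excitatory genes was not tested.

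**Figure D4:**
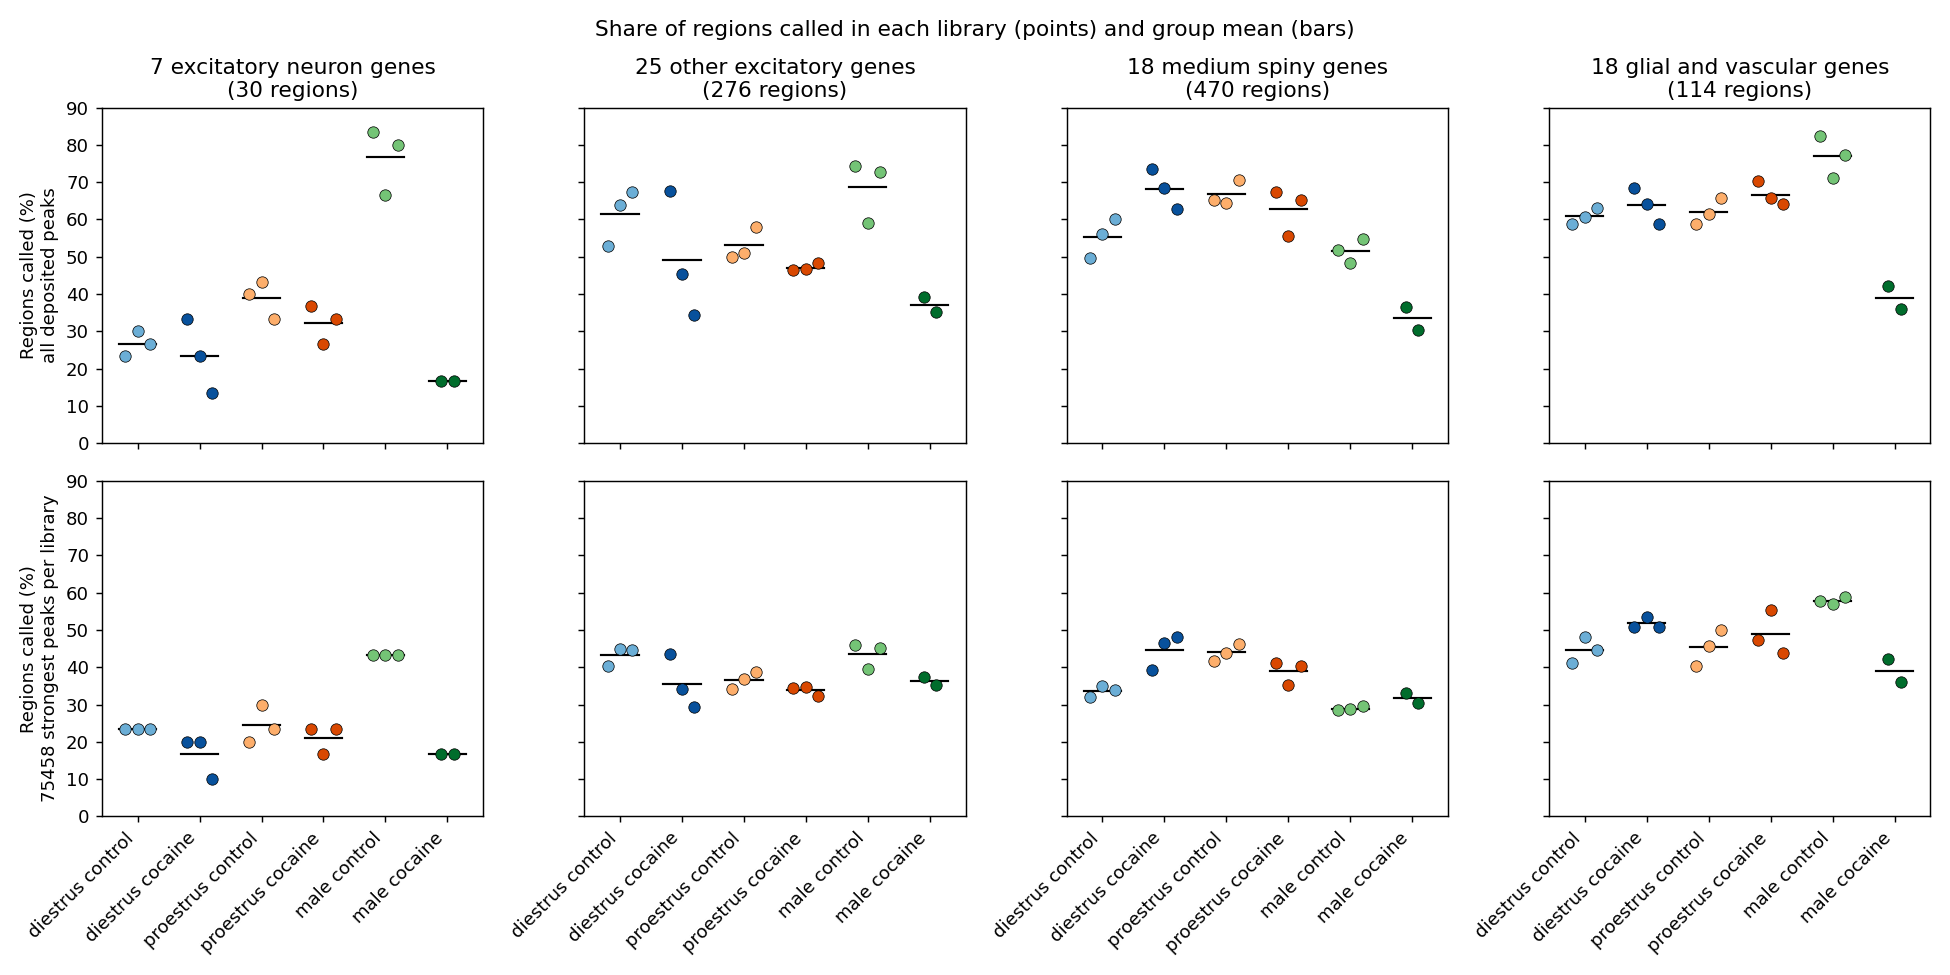
Share of kept regions called in each library (points; bars are group means) for 4 gene lists (columns), with all deposited peaks (top) and the 75458 strongest peaks of each library (bottom). Male controls lie at 66.7% to 83.3% for the 7 excitatory genes against at most 43.3% elsewhere, where 14 of the 30 regions were kept through male controls alone, and are lowest for medium spiny genes in the bottom row. Over all kept regions of the series and all peaks, male controls had called 64.6% to 70.7% and the others 36.6% to 66.1%.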

How the data were processed

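The deposited files held 1 peak list per library, called by the authors with MACS2 after alignment to mm10 with BWA (versions not given in the sources used here). Each list gives, as deposited, a score, the fold enrichment (a ratio) of the summit over background, and −log10 of p and q, with no normalization between libraries. The authors tested counts with featureCounts and DESeq2, which were not used here. The whole-genome list of peaks on chromosomes 1 to 19 and X was merged where peaks overlapped by 1 bp or more (281189 regions), and regions called in 2 or more libraries of a group were kept. Depth was read from the background pileup recovered from fold enrichments. No peak ran past the end of a chromosome of GRCm38. Genes came from GENCODE vM21, and other protein-coding genes lay within the loci of Slc17a7 (5 of them), Tbr1 and Emx1.

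Calls were compared by complete separation, Fisher's exact test, exact permutation within sex and stage (4000 assignments) and, for regions called in all libraries, limma 3.58.1 in R 4.3.3 with 1 mean per group, on log2 fold enrichment, each with Benjamini-Hochberg adjustment over all features at 0.05. Calculations used Python 3.11.15, and were tested on simulated data. Alternatives were other windows (gene body alone, 25 kb), a −log10 q of at least 5, the 75458 strongest peaks of each library, other centring, a replicate block and leaving out each library. All regions at the genes are counted, and those at each 5′ end, the strongest distal one and any that separated groups or passed a test are described. The genes and lists were chosen with earlier results of these data known. Libraries are taken as separate pools of animals, and p-values measure only the spread between them.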

Additional observations from a re-analysis of the deposited data

Results flagged for a closer look

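The region over the 5′ end and main coding start of Tbr1 was called in all 3 diestrus cocaine libraries and no diestrus control, but in no male cocaine library and all 3 male controls, 12 libraries in all. The opposite directions in diestrus females and males drew attention to it, and the difference was not tested. The male direction held for 16.8% of all regions and the diestrus direction for 1.16%. With the strongest peaks only the male separation remained. The strongest summits in diestrus cocaine lay at different positions, 681, 92 and 2713 bp downstream of the 5′ end.

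The region 9336 bp before Neurod2 had a cocaine difference in males that exceeded that in females by 0.77 on the log2 scale (limma adjusted p = 0.040). The 3 proestrus cocaine libraries lay below all 3 proestrus controls, while in males the groups overlapped. The difference was 0.22 without centring (adjusted p = 0.63), and it missed the threshold when any 1 of 10 of the 17 libraries was left out.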

How the results depend on the processing

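Counts of regions that separate groups depended on the threshold of a peak and on single libraries. With a −log10 q of at least 5, diestrus cocaine gained 0 and lost 1, proestrus cocaine lost 0, and diestrus against proestrus controls gave 2 and 0. With the strongest peaks these counts were the same, male cocaine lost 5, male against female controls gave 3, and male controls against the other 14 gave 2. With the gene body alone 1 region was called everywhere, proestrus cocaine lost 0, and the last 3 comparisons named here (proestrus controls alone, male against female controls, male controls alone) gave 1, 3 and 2. With 25 kb on each side proestrus cocaine lost 3, and 2 genes (Slc17a7 and Emx1) passed the test of peaks per locus, as did 12% of all genes. Within 3 kb 1 member promoter was called everywhere. Promoters called in male controls alone numbered 2, not 1, in several settings. Within 3 kb and by any coding transcript they were Emx1 and Fezf2. With a −log10 q of at least 5 and with the strongest peaks they were Emx1 and Neurod6, and the region of Fezf2 at 2430 bp was then called in 0 libraries.

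Leaving out 1 library gave 0 to 3 regions lost in diestrus, 0 to 1 gained and 1 to 3 lost in proestrus, 11 to 16 lost in males, 6 to 11 in male against female controls, 4 to 9 in male controls against the rest, and 0 to 2 genes in peaks per locus.

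Without centring, medians of all regions shifted by -0.40 in males after cocaine and 0.25 in male against female controls, and the regions past limma's threshold became 0 in diestrus, 0 in proestrus, 1 in males (Slc17a7 at 1689 bp) and 0 in male against female controls. The third region's differences turned to -0.24 (males) and 0.14 (diestrus minus proestrus controls), Neurod2 at 9336 bp to -0.24 (males), and the male minus female difference at Slc17a7 1689 bp to -0.21. The exact permutation test gave 0. Leaving out 1 library gave 0 to 2 regions past the threshold for the average over groups, 0 to 1 in diestrus, 0 to 1 in proestrus, 0 to 2 for male against female controls and 0 to 2 for the male minus female cocaine difference. Uncalled differences that changed sign then were -0.23 to 0.097 for the third region between stages, -0.36 to 0.035 in males and -0.039 to 0.14 between sexes for Slc17a7 at 1689 bp.

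Uncalled differences in peaks per locus also changed sign. After cocaine, Tbr1 gave 0.047 per 100000 peaks, and leaving out 1 library gave -0.67 to 0.33 for Tbr1 and -0.39 to 0.11 for Slc17a6. Between male and female controls Neurod2 gave 0.67 with a −log10 q of at least 5 or the gene body alone, 0.33 with the strongest peaks, 5.17 with 25 kb and -1 to 0.27 leaving out 1 library. Slc17a6 gave -0.17 with the strongest peaks and -0.17 to 0.83 leaving out 1 library.

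Replicate numbers did not pair the libraries: same-numbered cocaine and control libraries had correlations of -0.29 to 0.20, 2 of 7 over 0.1. With the number as a block, 0 regions passed in proestrus (Neurod2, adjusted p = 0.073), and 0 for the male minus female cocaine difference (0.66, adjusted p = 0.071), which also gave 0 without centring and with quantile normalization (0.76, adjusted p = 0.056). The causes of these changes were not tested. Over all 367 comparisons of main results with an alternative, 311 kept their value within 1.5 times. Counts of 0 that stayed 0 are among these, and 243 of the 367 left out a single library, so the tally is a weak measure of stability. Peak calls, not reads, limit what a missing call can show.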
